A study of Mus musculus with 18 samples.

Results

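The genes described here encode the proteasome and the proteins that activate, inhibit or assemble it, as measured by RNA sequencing of mouse colon tumor samples. They were taken as the protein-coding rows of the gene table whose symbol starts with Psm, followed by a letter from a to g and a digit. The 3 interferon-inducible catalytic subunits Psmb8, Psmb9 and Psmb10 were left out by this rule and are described separately beside the subunits that they replace. The rule found 48 genes among 54354 rows, of which 21782 were protein-coding. By their known roles these are 8 alpha and 8 beta subunits of the 20S core, 6 ATPases, 3 further base subunits and 8 lid subunits of the 19S cap, 6 activators and inhibitors, and 7 assembly chaperones. The remaining 2 carry a matching symbol without being proteasome subunits. Psmc3ip is a meiotic recombination partner, and Psme3ip1 is a protein that binds the activator subunit Psme3.

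The libraries were made from poly(A)-selected RNA with strand information and fall into 4 diet groups with 18 libraries in all. Members were compared between a serine-free high fat diet (SF_HFD, 5 libraries) and a serine-free control diet (SF_CD, 5 libraries). Both groups lack dietary serine and both are labelled as wild type, colon and tumor, so the comparison asks what the high fat diet does in the absence of serine. The sources used here do not give age, sex or the tumor model. The RNA protocol names organoids, whereas the design text speaks of live cells taken by cell sorting from normal or tumorous colon. In the 8 libraries of the diets with serine (3 on the control diet, CD, and 5 on the high fat diet, HFD), 21 of the 48 members are listed at 0 throughout, while 42 have a count in every serine-free library. The row names of those 8 columns were therefore not taken to name their genes, and these libraries are not analysed here.

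The 26S proteasome is the main machine for breaking down ubiquitin-tagged proteins in the cytosol and nucleus. Its 20S core is a barrel of alpha and beta rings in which the beta subunits Psmb5, Psmb6 and Psmb7 cut peptides, and its 19S cap binds, unfolds and threads substrates into the barrel with a ring of ATPases. The transcription factor Nfe2l1 is known to drive proteasome genes together when proteasome activity is short, and interferon is known to replace the catalytic subunits by the inducible set.

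Library totals ranged from 727610 to 12146933 counts in SF_HFD and from 499774 to 12841275 counts in SF_CD. SF_HFD library 5 and SF_CD libraries 1 and 5 held under 1000000 counts, so that 3 counts stand for 4.12, 6.0 and 5.73 CPM (counts scaled to a library of 1000000, here without TMM normalisation) there. Ribosomal RNA took 22.0% of the counts in SF_CD library 1 and 14.5% in SF_CD library 5, against 2.08% to 7.19% in the other 8 libraries. The noncoding RNA Malat1 took 12.1% in SF_CD library 1, against 0.41% to 1.66% in the other libraries. All 10 epithelial markers looked up were detected in both groups, with a summed level of 4806 to 7465 CPM in SF_HFD and 2449 to 5472 CPM in SF_CD. The 7 smooth muscle markers summed to 168 to 258 CPM in SF_HFD, against 2.94 to 24.4 CPM in SF_CD (Des at 0), and the 7 fibroblast markers to 68.5 to 136 CPM in SF_HFD, against 12.0 to 93.5 CPM in SF_CD. The 7 macrophage and myeloid markers summed to 7.60 to 41.7 CPM in SF_HFD and 33.2 to 113 CPM in SF_CD (Adgre1 at 0), and the 5 endothelial markers to 1.26 to 4.30 CPM in SF_HFD (Cdh5 at 0) and 3.86 to 33.8 CPM in SF_CD (Kdr at 0). The 6 T and B cell markers summed to at most 0.151 CPM in SF_HFD and 0.420 CPM in SF_CD, with Cd3e, Cd3g and Ms4a1 at 0 in both. Markers within a list did not all move alike. For the macrophage and myeloid list the gap in mean CPM, SF_HFD first, was largest for Lyz2 (4.40 against 34.4). It was smaller for Fcer1g (0.015 against 2.57), Cd68 (21.4 against 24.6) and Csf1r (0.308 against 0.527). Ptprc (0.514 against 0.286), Adgre1 (0.018 against 0) and Itgam (0.046 against 0.044) ran opposite to the sum of that list. Among the fibroblast markers, Col3a1 (9.48 against 11.7) and Lum (2.17 against 2.76) ran opposite to the sum. Col1a1, Col1a2, Dcn, Pdgfra and Postn went with it. Elf3 (153 against 268) and Vil1 (83.7 against 85.7) ran opposite to the epithelial sum, and Kdr (0.049 against 0) to the endothelial sum. The other epithelial and endothelial markers and all smooth muscle markers went with their sums. By edgeR's quasi-likelihood test, Acta2, Myl9, Actg2 and Postn were called higher in SF_HFD (adjusted p = 0.0023, 0.00016, 0.016 and 0.0073). Fcer1g was called lower (edgeR adjusted p = 0.0083). The part of these other cell types in the results below was not tested, and in such bulk samples fewer cells of a type and less RNA per cell cannot be told apart.

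No proteasome gene passed the test between the diets. Of the 48 members, 46 passed the filter on low counts, and 0 of these were called by edgeR's quasi-likelihood test (adjusted p under 0.05), where 0.323% of the 11780 genes tested were called. DESeq2 and limma-voom also called 0 members, while calling 2.54% and 1.47% of all genes tested. At an unadjusted p under 0.05, edgeR took Psme3 as higher in SF_HFD, where 4.92% of all genes were, and Psmd11 and Psme2b as lower, where 6.73% of all genes were. All p-values measure how much the libraries scatter, which may be technical, since the labels do not say that they come from separate animals or cultures. The remaining 2 members, the testis subunit Psma8 and the thymus subunit Psmb11, had a count of 0 in all 10 libraries.

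The log2 fold changes of the members, SF_HFD over SF_CD, had a median of 0.06, beside 0.02 over all genes tested, with 28 above and 18 below 0. Of the 46 members tested, 37 lay within 0.5 of 0 and 44 within 1 on the log2 scale. Their standard errors ranged from 0.29 to 0.99 with a median of 0.37, and a p that misses the threshold does not show that the levels were alike. In counts simulated from these 10 libraries, edgeR called 0 of 100 genes changed 2-fold and 19 of 100 changed 4-fold, besides 3 unchanged genes. Among the changed genes with a mean log2 CPM of 6 or more, edgeR called 0 of 16 changed 2-fold and 7 of 18 changed 4-fold. A call of 0 members thus says little about changes of 4-fold or less. The rate for the members themselves was not tested. By class, the median log2 fold change was 0.03 for the alpha and 0.17 for the beta subunits of the core, -0.02 for the ATPases, -0.0011 for the other base subunits, 0.12 for the lid, 0.25 for the activators and inhibitors, and 0.09 for the assembly chaperones. Psme3 was the only member whose SF_HFD libraries were all above the SF_CD libraries, where 2.23% of all genes tested were higher without overlap, and 0 members were lower without overlap, where 1.42% of all genes were.

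**Figure D1:**
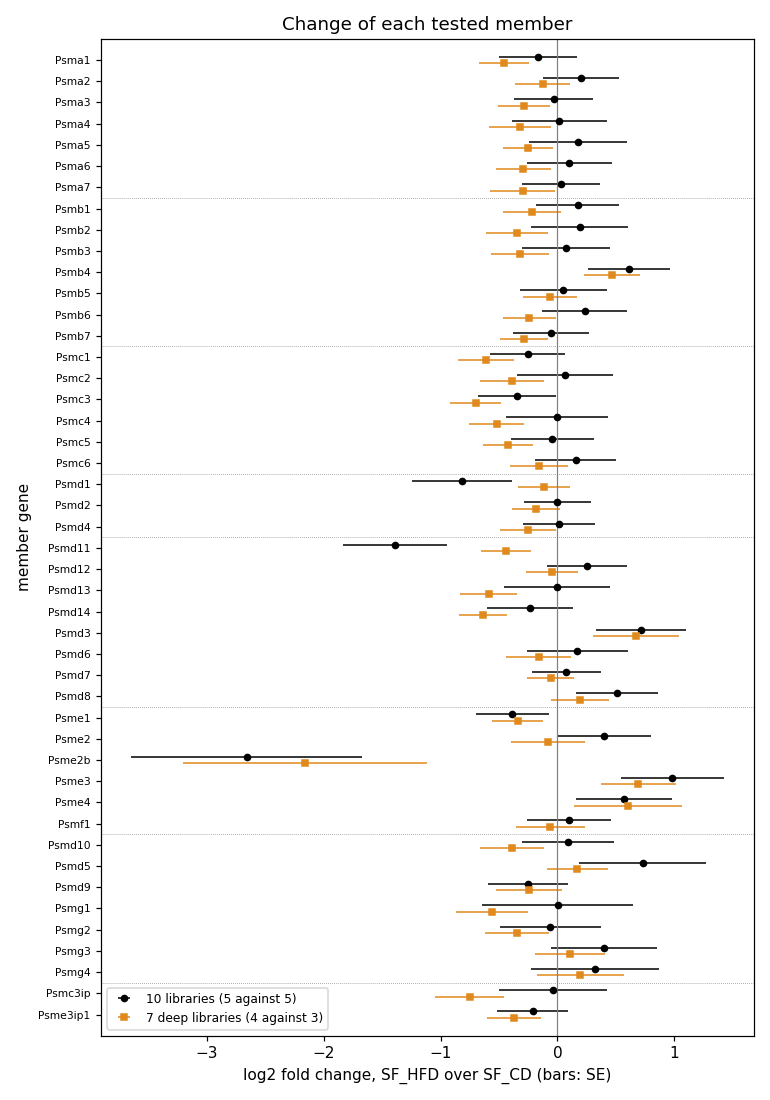
Change of each of the 46 tested members, SF_HFD over SF_CD (x axis, log2 fold change; bars, SE), in all 10 libraries (black circles, 5 against 5) and in the 7 libraries above 1000000 counts (orange squares, 4 against 3). Most black circles lie near 0, with Psmd11 at -1.39 and Psme2b at -2.66 to the left, and 38 of the 46 orange squares lie left of 0.

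The summed level of the members varied more between libraries than between the diets when all 10 libraries were read. It was 12625, 8079, 12975, 10811 and 11609 CPM in SF_HFD libraries 1 to 5, against 5611, 13840, 13763, 12632 and 9638 CPM in SF_CD libraries 1 to 5. The sums averaged 11220 ± 1952 CPM in SF_HFD, against 11097 ± 3507 CPM in SF_CD (SD, n = 5 each). In the 7 libraries above 1000000 counts they averaged 11122 ± 2240 CPM in SF_HFD (SD, n = 4), against 13411 ± 676 CPM in SF_CD (SD, n = 3), a log2 ratio of -0.27 beside 0.016 over all 10. The size of this ratio depended on the scaling. Without TMM factors it was -0.15 in the 7 and 0.15 in all 10 libraries. Scaled to the protein-coding total it was -0.11 in the 7 and 0.08 in all 10. The groups overlapped, with SF_CD library 1 the lowest of all 10, SF_HFD library 2 the lowest of its group and SF_CD libraries 2 and 3 the highest. As a share of all counts, the members took 0.961% (95% Wilson interval 0.951 to 0.971%) in SF_HFD library 2, 0.498% (0.479 to 0.518%) in SF_CD library 1 and 0.945% (0.920 to 0.972%) in SF_CD library 5. The shares in the other 7 libraries ran from 1.148% to 1.303%, and these intervals cover counting error only. Protein-coding genes held 63.5% of the counts in SF_CD library 1 and 81.0% in SF_CD library 5, against 89.4% to 94.7% in the others. The shares thus depend on the total used. Per 1000000 protein-coding counts, the members took 10746 in SF_HFD library 2, 7841 in SF_CD library 1 and 11677 in SF_CD library 5. The other 7 libraries ran from 12407 to 14126 on that scale.

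**Figure D2:**
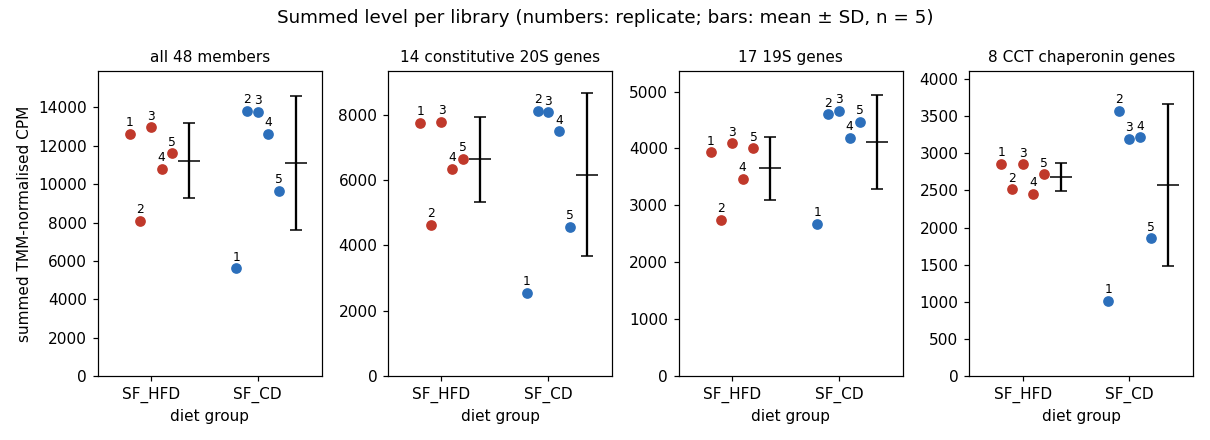
Summed level in each library (y axis, TMM-normalised CPM) for all 48 members, the 14 constitutive 20S genes, the 17 genes of the 19S cap and, for comparison, the 8 genes of the CCT chaperonin; points are libraries numbered by replicate and bars give the mean ± SD of 5 libraries. SF_CD library 1 is the lowest point in each panel, and the diet groups overlap in all 4.

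SF_CD library 1 alone held the lowest value of 32 of the 46 members tested (69.6%), against 32.7% of all genes tested. With each gene set against its own median over the 10 libraries, the members stood at a median of 0.07, -0.46, 0.14, -0.11 and -0.0022 on the log2 scale in SF_HFD libraries 1 to 5, and at -1.49, 0.27, 0.16, 0.10 and -0.63 in SF_CD libraries 1 to 5. Over all genes tested the median was 0.04 in SF_HFD library 2, -0.60 in SF_CD library 1 and -0.18 in SF_CD library 5. The members thus stood below the other genes in SF_HFD library 2 and in SF_CD libraries 1 and 5. Those 2 SF_CD libraries were rich in ribosomal RNA and poor in counts. SF_HFD library 2 held 3648783 counts, with 7.19% ribosomal RNA. In SF_HFD library 5, which held 727610 counts, the members stood at -0.0022, beside -0.03 over all genes tested. The part of depth and ribosomal RNA in the result was not tested. Subunits of other large complexes also stood low in SF_CD libraries 1 and 5. The 8 subunits of the CCT chaperonin, which folds actin and tubulin, stood at a median of -0.11 in SF_HFD library 2, -1.63 in SF_CD library 1 and -0.72 in SF_CD library 5. The 9 subunits of the COP9 signalosome, which is built like the 19S lid, stood at -0.55, -1.49 and -0.47 in the same 3 libraries.

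**Figure D3:**
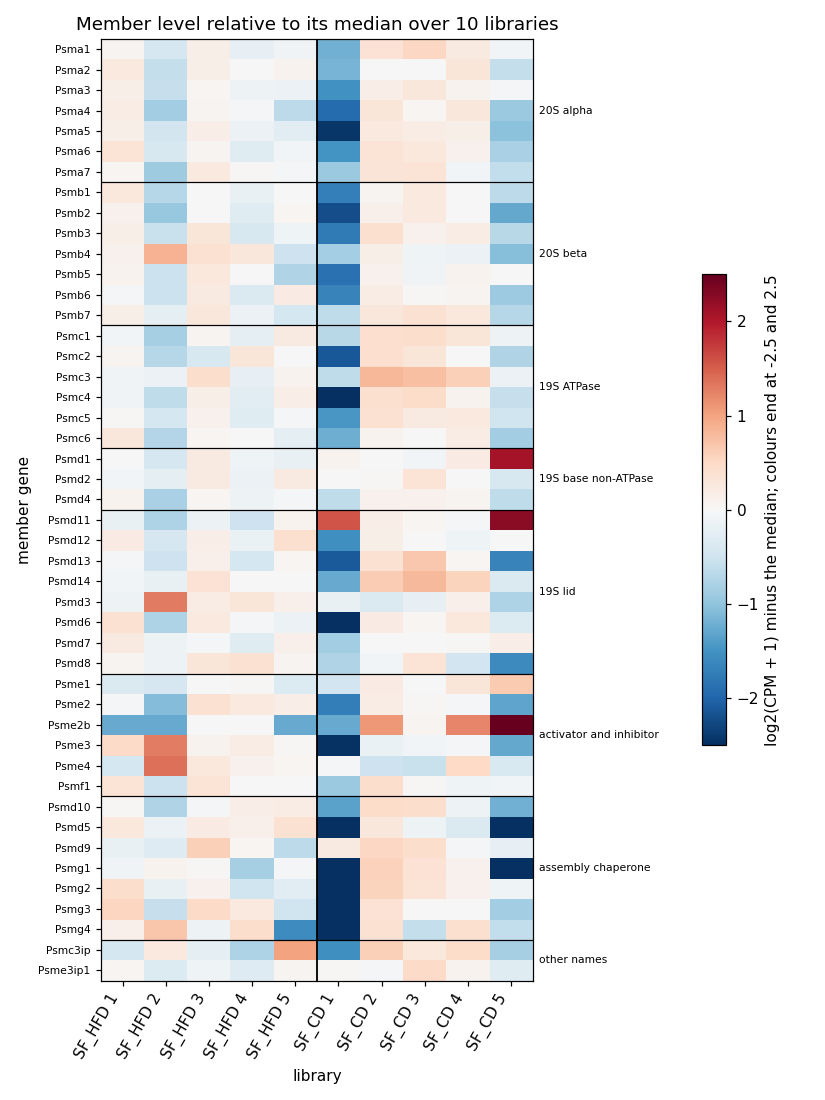
Level of each of the 46 tested members (rows, grouped by class) in each of the 10 libraries (columns, SF_HFD left of the vertical line), as log2(CPM + 1) minus the gene's median over the 10 libraries; blue is below and red above the median. SF_CD library 1 is blue for most rows, Psmd11 is red there and in SF_CD library 5, and Psmd3, Psme3 and Psme4 are red in SF_HFD library 2.

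The median standard deviation of a member over the 10 libraries was 0.61 on the log2 CPM scale, against 0.89 over all genes tested. In the 7 libraries above 1000000 counts it was 0.36, against 0.52 over all genes. The 31 constitutive subunits of the core and cap varied by 0.33 there. The genes were not matched for level, so these values do not show that members were steadier than other genes of like level.

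Without the 3 libraries under 1000000 counts (4 SF_HFD and 3 SF_CD libraries left), the log2 fold change of 20 of the 46 members turned from positive to negative, and 0 turned the other way. There 38 of the 46 members had a lower level in SF_HFD, with a median log2 fold change of -0.27 against 0.04 over all genes tested. This was not particular to the proteasome. In the same libraries the CCT chaperonin had a median of -0.35, with 6 of 8 genes below 0. The COP9 signalosome had -0.21, with 8 of 9 below 0. Again 0 members were called by edgeR, where 0.205% of 12653 genes were called. At an unadjusted p under 0.05 edgeR took 5 members, all lower in SF_HFD, where 7.97% of all genes were lower at that threshold. In 9 members every SF_HFD library was below every SF_CD library, where 9.36% of all genes were, and in Psme3 every one was above, where 9.29% of all genes were. The 9 members were Psma1, Psmc1, Psmc3, Psmc5, Psmd11, Psmd14, Psme2b, Psmg1 and Psmc3ip, which makes their share larger than that of all genes, with no test of this excess. Leaving out SF_HFD library 2 as well, the least deep of these 7 (3 against 3), gave a median of -0.13, with 31 members below 0, 0 members called, and again 9 members lower without overlap where 12.7% of all genes were.

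Among the alpha subunits, which form the outer rings and gate of the core, 0 of the 7 tested genes were called. In each of them the diet groups overlapped over the 10 libraries. Per kilobase of exon, Psma7 stood highest at 338 ± 86.8 CPM in SF_HFD, against 331 ± 121 CPM in SF_CD (SD, n = 5 each). Psma5 followed at 234 ± 43.4 and 206 ± 115 CPM per kilobase in SF_HFD and SF_CD, within the spread of Psma6 at 206 ± 43.0 and 191 ± 87.3 CPM per kilobase. The lowest of the class was Psma1, at 112 ± 17.2 CPM per kilobase in SF_HFD, against 125 ± 46.4 CPM per kilobase in SF_CD. These lengths join all annotated exons of a gene. With the longest transcript as length, Psma7 stayed highest and Psma1 came next, so the lower places depend on the length used.

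Psma7 was at 1137, 586, 1289, 1117 and 1069 CPM in SF_HFD libraries 1 to 5, against 573, 1374, 1382, 1044 and 713 CPM in SF_CD libraries 1 to 5. SF_HFD library 2 and SF_CD libraries 1 and 5 were the low ones and the groups overlapped (log2 fold change 0.03 ± 0.33 (SE), edgeR adjusted p = 0.984). Psma1 gave -0.17 ± 0.33 on the log2 scale (edgeR adjusted p = 0.895) and Psma2 gave 0.20 ± 0.32 (edgeR adjusted p = 0.864), and the other 4 tested alpha genes lay between -0.03 and 0.17. In the 7 deep libraries all 7 tested alpha genes had a lower level in SF_HFD, with log2 fold changes of -0.46 to -0.13, and Psma1 was lower without overlap.

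**Figure D4:**
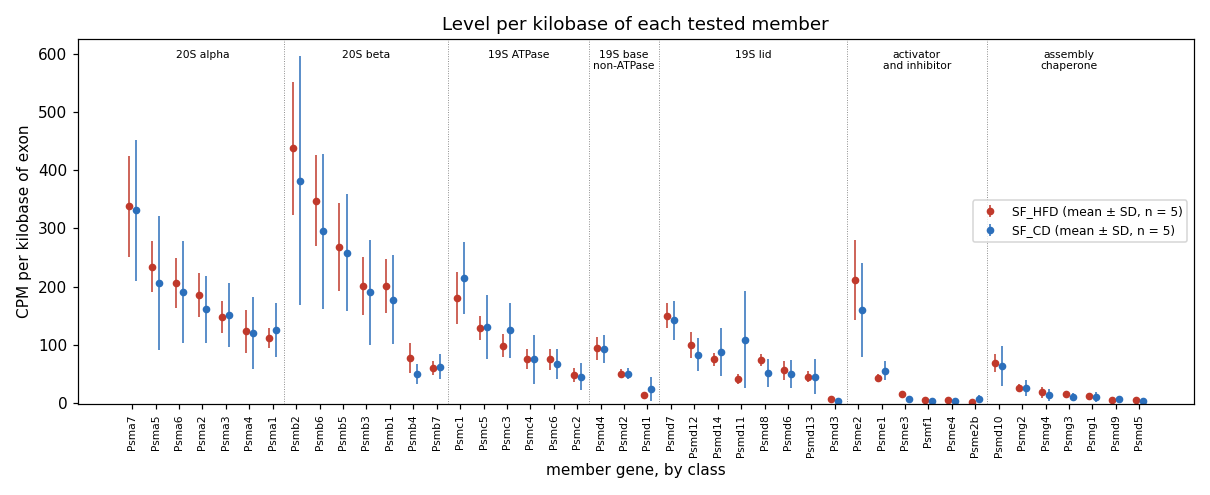
Level of 44 tested members per kilobase of exon (y axis, TMM-normalised CPM per kilobase), ordered by level within each class; red points are SF_HFD and blue points SF_CD, as mean ± SD of 5 libraries. Core subunits led by Psmb2, Psmb6 and Psma7 stand highest, Psme2 stands above the other activators, and the SD bars of the groups overlap for most genes.

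The beta subunits form the inner rings, and 3 of them carry the catalytic sites. Psmb2, which is not catalytic, and Psmb6, the caspase-like site, were the most abundant per kilobase, at 438 ± 114 and 348 ± 78.3 CPM per kilobase in SF_HFD, against 382 ± 214 and 295 ± 133 CPM per kilobase in SF_CD. Psmb5, the chymotrypsin-like site, stood at 268 ± 76.4 CPM per kilobase in SF_HFD, against 258 ± 101 CPM per kilobase in SF_CD. Psmb7, the trypsin-like site, was the lowest of the class at 59.99 ± 12.4 and 62.1 ± 21.1 CPM per kilobase in SF_HFD and SF_CD. Psmb5 and Psmb6 lay within their spread of each other, and both lay above Psmb7 in both diets per kilobase. This order depends on the lengths, which were 3421 bases of exon for Psmb7, against 899 for Psmb5 and 1872 for Psmb6. With the longest transcript as length, Psmb7 was again the lowest of the class.

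Psmb5 was at 284, 182, 318, 265 and 157 CPM in SF_HFD libraries 1 to 5, against 72.1, 288, 250, 282 and 267 CPM in SF_CD libraries 1 to 5. Only SF_CD library 1 stood apart, and the log2 fold change was 0.05 ± 0.37 (edgeR adjusted p = 0.977). Psmb5 shares 71.7% of its 31-base words with other genes of the annotation, mainly the pseudogene Gm3375, which received 15 counts over the 10 libraries against 19276 for Psmb5, so the split between them is uncertain. The same limit holds for Psma5, which shares 58.7%, mainly with Gm8394, a gene without a row in the gene table. Psmc1 shares 32.2%, mainly with Gm9575 (54 counts against 28595), and Psmd2 31.6%, mainly with Gm5422 (38 counts against 14503). Psmb6 was at 671, 472, 796, 532 and 786 CPM in SF_HFD libraries 1 to 5, against 214, 778, 692, 719 and 360 CPM in SF_CD libraries 1 to 5. The low values were those of SF_CD libraries 1 and 5 and the groups overlapped (log2 fold change 0.23 ± 0.36, edgeR adjusted p = 0.857). Psmb7 gave -0.06 ± 0.32 (edgeR adjusted p = 0.969) and Psmb2 0.19 ± 0.42 (edgeR adjusted p = 0.909), while Psmb1 and Psmb3 gave 0.17 and 0.07.

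Psmb4, a non-catalytic subunit of the same ring, had the largest log2 fold change of the core, 0.61 ± 0.35 (edgeR adjusted p = 0.520). It was at 133, 225, 160, 150 and 85.9 CPM in SF_HFD libraries 1 to 5, against 67.6, 136, 115, 111 and 58.4 CPM in SF_CD libraries 1 to 5. The groups overlapped, the highest value being that of SF_HFD library 2, where most core genes were low. In the 7 deep libraries Psmb4 was the only one of the 14 core genes with a positive log2 fold change (0.47 ± 0.24, edgeR adjusted p = 0.351), while the other 13 lay between -0.46 and -0.06.

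The promoters of 4 members are shown, a pair for a motif and a pair for their values. Psmb5 and Psmb6 are the catalytic core genes whose promoters hold the letters TGACNNNGC, the core of the antioxidant response element that Nfe2l1 and Nfe2l2 are known to bind. Psme3 has the highest log2 fold change of all members and Psmd11 the lowest of the core and cap genes, as described below. Each is the 250 bases before the RefSeq gene start (GRCm38.p6), written 5′ to 3′ on the strand of the gene, with capitals marking TGACNNNGC or CCAAT on either strand (CCAAT reads ATTGG on the other strand). They lie at chr14:54617996-54618245 (minus strand) for Psmb5, chr11:70525107-70525356 (plus strand) for Psmb6, chr11:80428365-80428614 (plus strand) for Psmd11 and chr11:101315963-101316212 (plus strand) for Psme3.
Psmb5: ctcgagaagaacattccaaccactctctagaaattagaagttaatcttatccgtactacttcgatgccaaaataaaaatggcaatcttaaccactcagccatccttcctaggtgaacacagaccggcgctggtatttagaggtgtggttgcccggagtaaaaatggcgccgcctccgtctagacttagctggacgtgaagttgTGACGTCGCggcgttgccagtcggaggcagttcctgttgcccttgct
Psmb6: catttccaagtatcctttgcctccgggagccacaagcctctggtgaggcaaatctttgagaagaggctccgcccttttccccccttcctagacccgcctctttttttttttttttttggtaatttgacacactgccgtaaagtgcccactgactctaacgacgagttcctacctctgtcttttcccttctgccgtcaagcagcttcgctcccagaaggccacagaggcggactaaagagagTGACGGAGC
Psmd11: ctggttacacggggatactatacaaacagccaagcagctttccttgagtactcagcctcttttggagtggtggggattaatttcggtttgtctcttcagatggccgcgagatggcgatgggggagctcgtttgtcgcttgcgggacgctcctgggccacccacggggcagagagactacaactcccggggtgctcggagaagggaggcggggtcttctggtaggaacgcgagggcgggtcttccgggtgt
Psme3: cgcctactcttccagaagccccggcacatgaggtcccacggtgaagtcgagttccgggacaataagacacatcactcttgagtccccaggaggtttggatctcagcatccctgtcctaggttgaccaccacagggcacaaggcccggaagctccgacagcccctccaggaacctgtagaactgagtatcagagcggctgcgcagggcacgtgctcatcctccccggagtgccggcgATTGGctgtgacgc
In these windows TGACNNNGC begins 47 bases before the start in Psmb5 and 9 bases before it in Psmb6, CCAAT is found in Psme3 on the opposite strand, and Psmd11 holds neither. RefSeq promoters of 300 bases, 250 before and 50 after the start, were matched for 40 of the 48 members. TGACNNNGC, searched on both strands, was found in 6 of these 40 (15%): Psmb5, Psmb6, Psmc6, Psmd12, Psmd9 and Psme4. Among all 27025 promoters matched to genes of the table, 12.5% held it. CCAAT was found in 14 of the 40 (35%), against 37.9% of all promoters, and no member promoter with TGACNNNGC also held CCAAT. The shares of the members were thus near those of all genes, and a match of letters describes the sequence only.

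The 6 ATPases (Psmc1 to Psmc6) form the motor ring of the cap, which unfolds substrates. Psmc1 was highest per kilobase, at 180 ± 45.3 CPM in SF_HFD, against 214 ± 62.3 CPM in SF_CD, and Psmc2 lowest, at 47.7 ± 12.6 and 45.2 ± 23.9 CPM per kilobase in SF_HFD and SF_CD. Psmc1 was at 360, 213, 400, 324 and 443 CPM in SF_HFD libraries 1 to 5, against 234, 506, 514, 468 and 349 CPM in SF_CD libraries 1 to 5. Psmc3 was at 235, 224, 340, 217 and 264 CPM in SF_HFD libraries 1 to 5, against 160, 441, 421, 375 and 226 CPM in SF_CD libraries 1 to 5. In both genes SF_CD libraries 2, 3 and 4 lay above every SF_HFD library, while SF_CD libraries 1 and 5 lay among or below them. The log2 fold changes over the 10 libraries were -0.26 ± 0.32 for Psmc1 (edgeR adjusted p = 0.815), -0.35 ± 0.33 for Psmc3 (edgeR adjusted p = 0.736) and -0.04 ± 0.35 for Psmc5 (edgeR adjusted p = 0.980). Psmc2, Psmc4 and Psmc6 gave 0.06, -0.0036 and 0.15.

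In the 7 deep libraries all 6 ATPases had a lower level in SF_HFD, with a median log2 fold change of -0.47 and a range of -0.70 to -0.16, and Psmc1, Psmc3 and Psmc5 were lower without overlap. Psmc3 gave -0.70 ± 0.22 (edgeR adjusted p = 0.192) and Psmc1 -0.61 ± 0.24 (edgeR adjusted p = 0.250), so neither was called. The summed level of the 6 ATPases in these libraries was 1413 ± 274 CPM in SF_HFD (SD, n = 4) and 1974 ± 123 CPM in SF_CD (SD, n = 3). The log2 ratio of these sums was -0.48, against -0.36 without TMM factors and -0.32 scaled to the protein-coding total. Without SF_HFD library 2 the median of the class was -0.36, with 5 of 6 below 0.

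Psmd1, Psmd2 and Psmd4 complete the base of the cap. Psmd1 and Psmd2 are its large scaffold subunits and Psmd4 is a ubiquitin receptor. Psmd4 was the highest of the 3 per kilobase, at 93.6 ± 20.3 CPM in SF_HFD, against 92.2 ± 24.1 CPM in SF_CD (log2 fold change 0.01 ± 0.31, edgeR adjusted p = 0.990). Psmd2, at 50.2 ± 7.70 and 50.1 ± 8.95 CPM per kilobase in SF_HFD and SF_CD, gave -0.0011 ± 0.29 on the log2 scale (edgeR adjusted p = 0.999). Psmd1 was at 101, 75.8, 119, 95.1 and 89.7 CPM in SF_HFD libraries 1 to 5, against 108, 103, 97.2, 117 and 432 CPM in SF_CD libraries 1 to 5. The value of 432 CPM in SF_CD library 5 rests on 222 counts, and the other 9 libraries lie within 75.8 to 119 CPM. With it the log2 fold change was -0.82 ± 0.43 (edgeR adjusted p = 0.472), and without SF_CD library 5 it was -0.16.

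The lid removes ubiquitin from substrates, and its subunit Psmd11 showed the largest difference between the diets among the subunits of the core and cap. Psmd11 (chr11:80428615-80473248 in mm10) encodes a scaffold subunit of the lid whose level is known to affect how many 26S particles form. It was at 279, 186, 285, 223 and 337 CPM in SF_HFD libraries 1 to 5, against 949, 355, 327, 309 and 1513 CPM in SF_CD libraries 1 to 5. The groups overlapped only through SF_HFD library 5, while SF_CD libraries 1 and 5 stood far above all others, at 421 and 777 counts. The log2 fold change was -1.39 ± 0.44 (edgeR unadjusted p = 0.0062, adjusted p = 0.228). Leaving out SF_CD library 5 gave -0.90, and leaving out all 3 small libraries gave -0.44 ± 0.22 (edgeR adjusted p = 0.338), with no overlap of 279, 186, 285 and 223 CPM in SF_HFD with 355, 327 and 309 CPM in SF_CD.

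In the small SF_CD libraries Psmd11 thus went against the rest of the set. SF_CD library 1 was 3.06 and SF_CD library 5 was 2.88 above the median member on the log2 scale, where 0 marks a gene that moved with the set. Psmd1 was 2.71 above it in SF_CD library 5. Both libraries are the ones rich in ribosomal RNA, and the part of this in the Psmd11 value was not tested. Psmd11 shares 13.1% of its 31-base words with other genes of the annotation, most of them (622 of 873 words) with the pseudogene Gm14048, which received 6 counts in all.

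**Figure D5:**
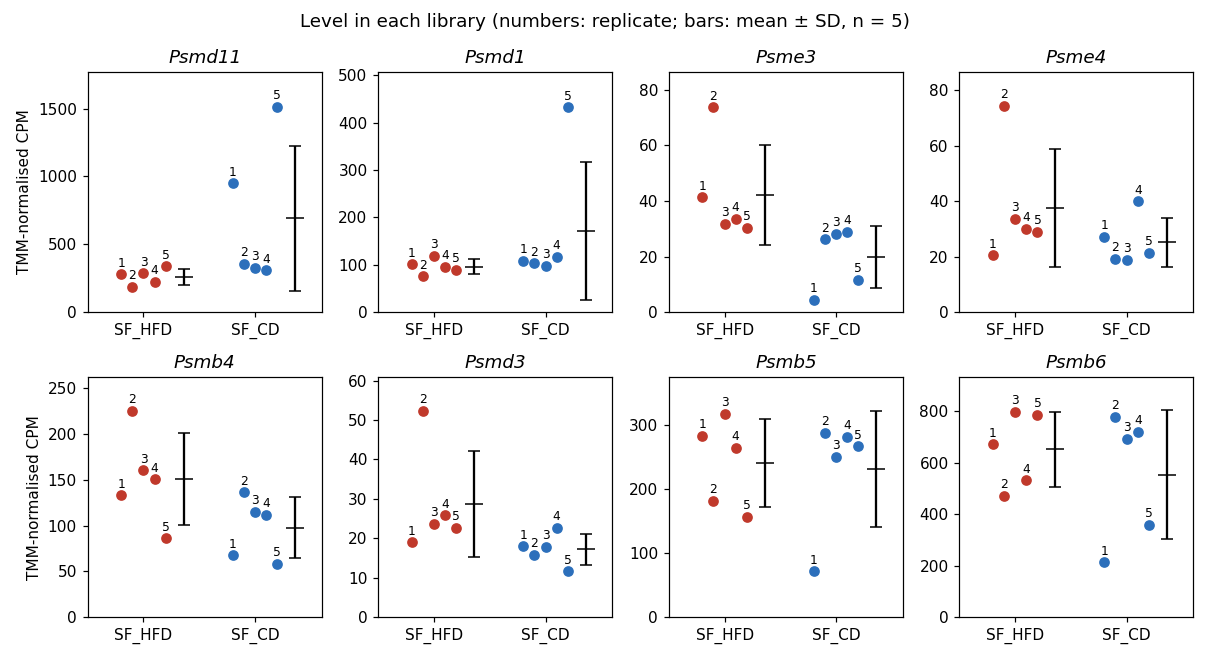
Level in each library (y axis, TMM-normalised CPM) of 8 members, with SF_HFD left of SF_CD; points are libraries numbered by replicate and bars give the mean ± SD of 5 libraries. Psmd11 and Psmd1 are high in small SF_CD libraries (1513 and 432 CPM in library 5), Psme3, Psme4 and Psmd3 are high in SF_HFD library 2, and Psmb5 and Psmb6 are low in SF_CD library 1.

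Of the other 7 lid genes 0 were called, with log2 fold changes of -0.23 to 0.71. Psmd7, an inactive partner of the deubiquitinase, was the most abundant of the class per kilobase at 150 ± 21.6 CPM in SF_HFD, against 142 ± 33.8 CPM in SF_CD (log2 fold change 0.08 ± 0.29, edgeR adjusted p = 0.950). Psmd14, the deubiquitinase itself, was at 197, 180, 266, 203 and 208 CPM in SF_HFD libraries 1 to 5, against 85.7, 319, 363, 305 and 160 CPM in SF_CD libraries 1 to 5. SF_CD libraries 2, 3 and 4 were above and SF_CD libraries 1 and 5 below every SF_HFD library, so the sign of the difference rests on which SF_CD libraries are read. Its log2 fold change was -0.23 ± 0.37 over the 10 libraries (edgeR adjusted p = 0.859) and -0.64 ± 0.21 in the 7 deep ones (edgeR adjusted p = 0.198). The scaffold subunit Psmd12 gave 0.25 ± 0.34 (edgeR adjusted p = 0.829), and Psmd8, Psmd6 and Psmd13 gave 0.51, 0.17 and -0.0074.

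Psmd3, a further lid scaffold subunit, was the least abundant lid gene at 5.79 ± 2.70 CPM per kilobase in SF_HFD, against 3.47 ± 0.803 CPM per kilobase in SF_CD. It was at 19, 52.3, 23.8, 25.9 and 22.7 CPM in SF_HFD libraries 1 to 5, against 18.0, 15.9, 17.9, 22.7 and 11.7 CPM in SF_CD libraries 1 to 5. The groups overlapped and SF_HFD library 2 alone was high (log2 fold change 0.71 ± 0.38, edgeR adjusted p = 0.488), and without that library the value was 0.38.

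The activators open the core gate in place of the 19S cap. Psme1 and Psme2 form the interferon-inducible ring of the cytosol, Psme3 forms the nuclear ring, Psme4 is a large nuclear activator known from the testis and from chromatin, and Psmf1 is an inhibitor of the core. Psme2 was by far the most abundant of them per kilobase, at 211 ± 68.2 CPM in SF_HFD, against 159 ± 80.4 CPM in SF_CD, while its partner Psme1 stood at 42.4 ± 6.60 and 55.4 ± 15.7 CPM per kilobase in SF_HFD and SF_CD. The log2 fold changes were 0.40 ± 0.40 for Psme2 (edgeR adjusted p = 0.755), -0.39 ± 0.31 for Psme1 (edgeR adjusted p = 0.677) and 0.10 ± 0.36 for Psmf1 (edgeR adjusted p = 0.947).

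Psme3 (chr11:101316213-101323537) was the only member higher in every SF_HFD library. It was at 41.4, 73.7, 31.7, 33.7 and 30.3 CPM in SF_HFD libraries 1 to 5, against 4.51, 26.2, 28.3, 28.9 and 11.7 CPM in SF_CD libraries 1 to 5. The gap between the groups is small, 30.3 CPM in SF_HFD library 5 beside 28.9 CPM in SF_CD library 4, and the extremes are SF_HFD library 2 and SF_CD library 1. The log2 fold change was 0.98 ± 0.44 (edgeR unadjusted p = 0.0395, adjusted p = 0.395), and 0.69 ± 0.32 in the 7 deep libraries (edgeR adjusted p = 0.318). Leaving out each library in turn gave 0.69 to 1.119.

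Psme4 was at 20.5, 74.4, 33.7, 30.1 and 29.1 CPM in SF_HFD libraries 1 to 5, against 27.1, 19.2, 18.8, 39.9 and 21.4 CPM in SF_CD libraries 1 to 5. As in Psme3 and Psmd3, SF_HFD library 2 was high, and the groups overlapped (log2 fold change 0.57 ± 0.41, edgeR adjusted p = 0.629). Without SF_HFD library 2 the value was 0.16. These 3 genes and Psmb4 stood 1.32 to 1.86 above the median member in that library on the log2 scale, at 227 to 977 counts.

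Psme2b is a near copy of Psme2 without introns in the annotation (chr11:48945354-48946190), and 78.4% of its 31-base words also occur in other genes, nearly all of these (617 of 633 words) in Psme2. It received 151 counts over the 10 libraries against 27292 for Psme2, so its values are uncertain. Psme2b was at 0, 0, 1.39, 1.43 and 0 CPM in SF_HFD libraries 1 to 5, against 0, 4.08, 1.54, 4.63 and 15.6 CPM in SF_CD libraries 1 to 5. The groups overlapped at 0, and the highest value, in SF_CD library 5, rests on 8 counts (log2 fold change -2.66 ± 0.99, edgeR adjusted p = 0.312). Summed, Psme2 and Psme2b were at 373 ± 121 CPM in SF_HFD, against 286 ± 140 CPM in SF_CD (SD, n = 5 each), a difference below the spread.

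The assembly chaperones build the core (Psmg1 to Psmg4) and the base (Psmd5, Psmd9 and Psmd10) without being part of the finished particle. They were sparse, and Psmd10 was highest per kilobase at 68.8 ± 15.9 CPM in SF_HFD, against 63.3 ± 33.9 CPM in SF_CD (log2 fold change 0.09 ± 0.39, edgeR adjusted p = 0.955). Psmd5 was at 32.7, 24.4, 31.4, 29.5 and 35.4 CPM in SF_HFD libraries 1 to 5, against 0, 33.2, 24.8, 20.7 and 3.89 CPM in SF_CD libraries 1 to 5. The low values of SF_CD libraries 1 and 5 rest on 0 and 2 counts, the groups overlapped, and the log2 fold change of 0.73 ± 0.54 (edgeR adjusted p = 0.643) was 0.17 in the 7 deep libraries. Psmg1 likewise had 0 counts in SF_CD libraries 1 and 5, which allows up to 6.0 and 5.73 CPM without TMM normalisation there. It averaged 15.1 ± 3.57 CPM in SF_HFD against 13.1 ± 12.2 CPM in SF_CD. Psmg3 gave 0.40 ± 0.46 (edgeR adjusted p = 0.792) and Psmg2 -0.06 ± 0.43 (edgeR adjusted p = 0.976). Psmg4 and Psmd9 gave 0.32 ± 0.55 and -0.25 ± 0.34, with edgeR adjusted p of 0.875 and 0.831. Of the genes that are no proteasome subunits, Psmc3ip gave -0.04 ± 0.46 (edgeR adjusted p = 0.984) and Psme3ip1 -0.21 ± 0.30 (edgeR adjusted p = 0.843).

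The inducible subunits Psmb8, Psmb9 and Psmb10 take the places of Psmb5, Psmb6 and Psmb7 in the immunoproteasome. Psmb10 made up 31.6 ± 4.10% of the sum of Psmb10 and Psmb7 per kilobase in SF_HFD and 26.5 ± 6.39% in SF_CD (SD, n = 5 each). Psmb9 made up 0.703 ± 0.189% of Psmb9 and Psmb6 in SF_HFD and 0.720 ± 0.297% in SF_CD, and Psmb8 made up 0.643 ± 0.421% of Psmb8 and Psmb5 in SF_HFD and 0.478 ± 0.372% in SF_CD. The transcripts of the core were thus mainly of the constitutive kind in both diets for Psmb5 and Psmb6, with a larger inducible share at the Psmb7 place, and the groups overlapped in all 3 shares. None of the 3 inducible genes was called, with log2 fold changes of 0.56 ± 0.67 for Psmb8 (edgeR adjusted p = 0.802), -0.08 ± 0.50 for Psmb9 (0.971) and 0.22 ± 0.38 for Psmb10 (0.878).

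Genes around the proteasome were counted from lists of known pathway members. Of 11 proteasome-associated genes with other symbols, all were tested and 0 called. Among them Pomp, the maturation factor of the core, was at 789 ± 197 CPM in SF_HFD, against 685 ± 300 CPM in SF_CD (log2 fold change 0.20 ± 0.35, edgeR adjusted p = 0.878), and was below 0 in the 7 deep libraries (-0.22). Adrm1, the ubiquitin receptor of the base, was higher in all SF_HFD libraries, at 32.8, 21.9, 31.3, 25.9 and 29.1 CPM in SF_HFD libraries 1 to 5, against 4.51, 17.3, 20.2, 17.5 and 9.74 CPM in SF_CD libraries 1 to 5. The log2 fold change of Adrm1 was 0.92 ± 0.38 (edgeR adjusted p = 0.365), and it is named here after its values were seen. Lists of 11 ubiquitin shuttle and p97 genes, 6 ubiquitin and E1 genes, 9 COP9 and 8 CCT genes had 0 called, as did 8 tested genes of 11 in an interferon and antigen processing list.

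Of 9 genes of the pathway by which Nfe2l1 is processed and acts, 0 were called. Nfe2l1 itself was at 42.4, 73.3, 71.0, 58.3 and 42.9 CPM in SF_HFD libraries 1 to 5, against 140, 46.1, 58.1, 70.6 and 164 CPM in SF_CD libraries 1 to 5. The high values were those of SF_CD libraries 1 and 5, where most proteasome genes were low, and the log2 fold change of -0.70 ± 0.40 (edgeR adjusted p = 0.519) was 0.07 in the 7 deep libraries. Nfe2l2, the related stress factor, was lower in every SF_HFD library, at 98.3, 83.2, 105, 96.5 and 89.7 CPM in SF_HFD libraries 1 to 5, against 239, 129, 201, 170 and 234 CPM in SF_CD libraries 1 to 5. Its log2 fold change was -1.03 ± 0.30 (edgeR adjusted p = 0.186), so it was not called, and it too is named after its values were seen.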

How the data were processed

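Estimated counts, in whole numbers, were deposited by the authors with genes in rows and libraries in columns. Salmon 1.3.0 and the build mm10 are named in the submitters' processing notes. Neither the annotation release nor any filter is given in the sources used here. Salmon shares out reads that fit near-identical copies by a statistical estimate. Coordinates and exon lengths came from GENCODE M21, which holds 94.7% of the row identifiers.

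Columns were matched to samples by the library names in the labels. No columns were identical. The 10 serine-free libraries were fitted with edgeR 4.0.16 (quasi-likelihood, robust, TMM, filterByExpr, in R 4.3.3), and p-values were adjusted over all genes tested (Benjamini-Hochberg, threshold 0.05). CPM are TMM-normalised. Alternatives were DESeq2 1.42.0, limma-voom (limma 3.58.1), other normalizations and filters, a replicate block and fits leaving out libraries. Genes were named by a rule: members without overlap, the 2 smallest p and the 2 highest levels per kilobase in each class, and genes chosen for their role. Members, lists and rules were chosen with earlier results of these data known. The code was tested on simulated data, where few changed genes were recovered, as given above. Promoters come from RefSeq (GRCm38.p6).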

Additional observations from a re-analysis of the deposited data

Results flagged for a closer look

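In 8 of the 74 groups of 5 libraries examined, the highest or lowest library stood apart from the other 4 by more than 0.71 of the group's range, and chance flags about 1 in 20 groups. SF_HFD library 2 stood apart and high for Psmd3 (52.3 CPM, against 19 to 25.9 CPM in the other 4 SF_HFD libraries), Psme3 (73.7 CPM, against 30.3 to 41.4 CPM) and Psme4 (74.4 CPM, against 20.5 to 33.7 CPM). SF_HFD library 3 was high for Psmb8 (15.4 CPM, against 2.53 to 5.99 CPM). SF_CD library 5 was high for Psmd1 (432 CPM, against 97.2 to 117 CPM in the other 4 SF_CD libraries). SF_CD library 1 was low for Psmb5 (72.1 CPM, against 250.4 to 288 CPM), Psmd12 (85.7 CPM, against 233 to 277 CPM) and Psmd7 (187 CPM, against 339 to 384 CPM).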

How the results depend on the processing

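Under the alternatives run, edgeR, DESeq2 and limma-voom called 0 members. Over the whole table, 38 genes were called, and 78 with no filter, 18 with a stricter filter, 298 with DESeq2, 173 with limma-voom, 10 in 6 deep libraries (chosen after seeing the data) and 16 to 88 leaving out each library in turn, which gave a median of the members of -0.11 to 0.22 on the log2 scale. The sign of small log2 fold changes depended on the setting, with no member called in any, and the cause was not tested. Single values are given for the genes named by rule only. Without the 3 small libraries, the sign turned for 20 of the 46 members tested, and among the named genes for Psma2 (-0.13), Psma5 (-0.25), Psma7 (-0.30), Psmb2 (-0.35), Psmb5 (-0.062), Psmb6 (-0.24), Psmd10 (-0.39), Psmd12 (-0.045), Psmd4 (-0.25), Psmd7 (-0.059), Psme2 (-0.081), Psmf1 (-0.061), Psmb10 (-0.0097), Pomp (-0.22) and Nfe2l1 (0.072). Under limma-voom it turned for Psma5 (-0.024), Psma7 (-0.083), Psmb2 (-0.043), Psmd10 (-0.19), Psmd4 (-0.080), Psmd7 (-0.047), Psmb10 (-0.079) and Nfe2l1 (0.029). RLE scaling turned Psma7 (-0.017) and Psmd4 (-0.038), DESeq2 turned Psma7 (-0.018) and Psmd4 (-0.045), upper quartile scaling turned Psmd2 (0.0068) and no filter turned Psmd2 (0.042). Leaving out each library in turn gave ranges across 0 for Psma5 (-0.075 to 0.34), Psma7 (-0.12 to 0.18), Psmb2 (-0.049 to 0.39), Psmb5 (-0.17 to 0.17), Psmb7 (-0.19 to 0.066), Psmc3ip (-0.37 to 0.14), Psmc5 (-0.24 to 0.098), Psmd10 (-0.091 to 0.30), Psmd2 (-0.097 to 0.10), Psmd4 (-0.092 to 0.14), Psmd7 (-0.060 to 0.14), Psmf1 (-0.031 to 0.27), Psmg2 (-0.30 to 0.13), Psmb8 (-0.13 to 0.96) and Psmb9 (-0.29 to 0.20). With the longest transcript as length, the median level of the core genes was 255.3 CPM per kilobase, against 192.2 with all exons, and the SF_HFD shares of Psmb9 and Psmb8 were 0.462% and 1.132%. Depth limits SF_HFD library 5 and SF_CD libraries 1 and 5, where genes under 4 to 6 CPM without TMM normalisation rest on at most 3 counts.

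Libraries with the same number showed correlations of -0.211 to 0.136 in their deviations, against -0.259 to 0.19 for libraries with different numbers. No pairing by number was seen, but weak pairing could go unseen among so few libraries. The labels do not state any pairing. A replicate block called 22 genes and 0 members, with a median of 0.21 over the members, and turned Psmc3ip (0.014), Psmc5 (0.067), Psmd2 (0.0033), Psmg2 (0.048) and Psmb9 (0.16).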
